A study of Mus musculus with 4 samples.

Results

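Glutamate receptor genes and the genes of their auxiliary subunits were measured by RNA sequencing in the cerebral cortex of mouse embryos at embryonic day 15. They were chosen by symbol from the protein-coding genes listed in both deposited tables: the AMPA (Gria), NMDA (Grin), kainate (Grik) and delta (Grid) receptor subunits, the metabotropic receptors (Grm), Cacng2 to Cacng8, which apart from Cacng6 encode transmembrane AMPA receptor regulatory proteins or TARPs, Shisa6 to Shisa9, the cornichons (Cnih1 to Cnih4), and Neto1 and Neto2. These were 42 of 19968 genes. A further gene of these families, Grm6, was listed beside cKO 1 alone, with 1 count in cKO 1 and 3 counts in the floxed library. The expression filter kept 41 of the 42. Cacng6, a calcium channel subunit that is no TARP, did not pass, with a single count in each cKO library and 2 in floxed.

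The libraries compared were 2 from C57BL/6 embryos with a conditional knockout of Prdm16 (genotype Prdm16cKO, called cKO 1 and cKO 2) and 1 from embryos with the floxed gene (genotype Prdm16fl/fl, called floxed). Prdm16 encodes a zinc-finger transcriptional regulator that radial glia express. The sources used here name neither the line that drives Cre nor the deleted exon, and do not say whether the libraries came from separate embryos. The sample labels give cerebral cortex and 2 samples per group, while the series' design text speaks of telencephalic tissue and triplicates. P-values therefore measure a spread that may be technical, and every floxed value is that of a single library.

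Glutamate is the main excitatory transmitter of the cortex. AMPA and kainate receptors are ligand-gated channels that carry fast currents, and NMDA receptors are channels that also need glycine and depolarisation to pass calcium. Metabotropic receptors act through G proteins. TARPs and some of the cornichons and Shisa proteins bind AMPA receptors and set their traffic and gating, and Neto proteins do so for kainate receptors. In the embryonic cortex such receptors are known from progenitors and migrating neurons as well as from neurons that form synapses.

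Depth was similar, with totals between 17839662 and 19514882 counts per library, and levels are given as CPM, counts scaled to the library total. A gene with 0 counts could lie at up to 3 counts, or 0.168 CPM in the shallowest library. Prdm16 itself had 34.6 CPM in cKO 1 and 24.1 CPM in cKO 2, against 30.2 CPM in floxed, so its level was above floxed in cKO 1 and below it in cKO 2. The total of the gene does not check the label of cKO 1, and the names cKO 1 and cKO 2 stand for the libraries labelled cKO. The cortical genes Emx1, Emx2, Lhx2, Tbr1 and Neurod6 were at 53.0 CPM or more in every library. The 12 markers of meninges and fibroblasts summed to 815 CPM in cKO 1 and 26.9 CPM in cKO 2, against 509 CPM in floxed. The 12 endothelial markers summed to 386 and 193 CPM in the cKO libraries, against 326 CPM in floxed. The libraries labelled cKO thus stood on opposite sides of floxed for tissue around and between the neural cells, and results below are given for each of them. The part of these tissues in the values of the glutamate receptor genes was not tested. In whole cortex, fewer cells of a type and less RNA per cell cannot be told apart.

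None of the glutamate receptor genes passed the test between the groups, and most fitted folds were small. The edgeR quasi-likelihood test with Benjamini-Hochberg adjustment called 0 of 41 members and 0 of 16725 genes (0% called), and limma-voom called 0 of each. DESeq2 called 5 genes, of which 0 were members. The smallest unadjusted edgeR p-values among the members were those of Shisa9 and Neto2, with fitted log2 folds of 0.72 and 0.33. How many members fell under an unadjusted p of 0.05 changed with the fit. The fitted log2 folds ran from -0.47 for Cacng5 to 1.06 for Grm3, and 37 of 41 were smaller than 0.5 in size. Only Grm3 exceeded 2-fold in the fit, 2.44% of members against 3.61% of all genes. The median log2 fold over floxed was -0.12 in cKO 1 and -0.05 in cKO 2, against 0.01 and -0.04 over all genes.

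Set against floxed with counting error alone, 8 members were higher in cKO 1 (17.8% of all genes were) and 13 lower (16%). In cKO 2, 8 were higher (16.1%) and 11 lower (24.5%). These comparisons share the floxed library. In 5 members both cKO libraries exceeded floxed beyond counting error (5.16% of all genes), namely Shisa9, Neto2, Grm3, Cacng7 and Cnih1. In 7 members both were lower (7.52% of all genes), namely Shisa7, Gria4, Gria1, Grin2b, Shisa6, Cacng5 and Grid1. That is 12.2% and 17.1% of the members. The shares are not like for like, since a given ratio passes counting error more readily at higher counts. A minimum count of 50 kept 39 of the 41 members and 13181 of the 16725 genes. Of the 20 pan-neuronal genes, 2 were higher in both cKO libraries and 5 lower in both. In Gria2 and Cnih2, or 2 members, the cKO libraries lay on opposite sides of floxed beyond counting error (5.78% of all genes). Without regard to counting error, both cKO libraries were above floxed in 10 members (27.7% of all genes) and below it in 19 (31.8%). Between the cKO libraries themselves, 6 members were higher in cKO 1 beyond counting error (27.3% of all genes) and 11 lower (17%), so a difference of this kind also arose inside the group. Counting error here is the exact 95% interval of a ratio of CPM between a pair of libraries.

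**Figure D1:**
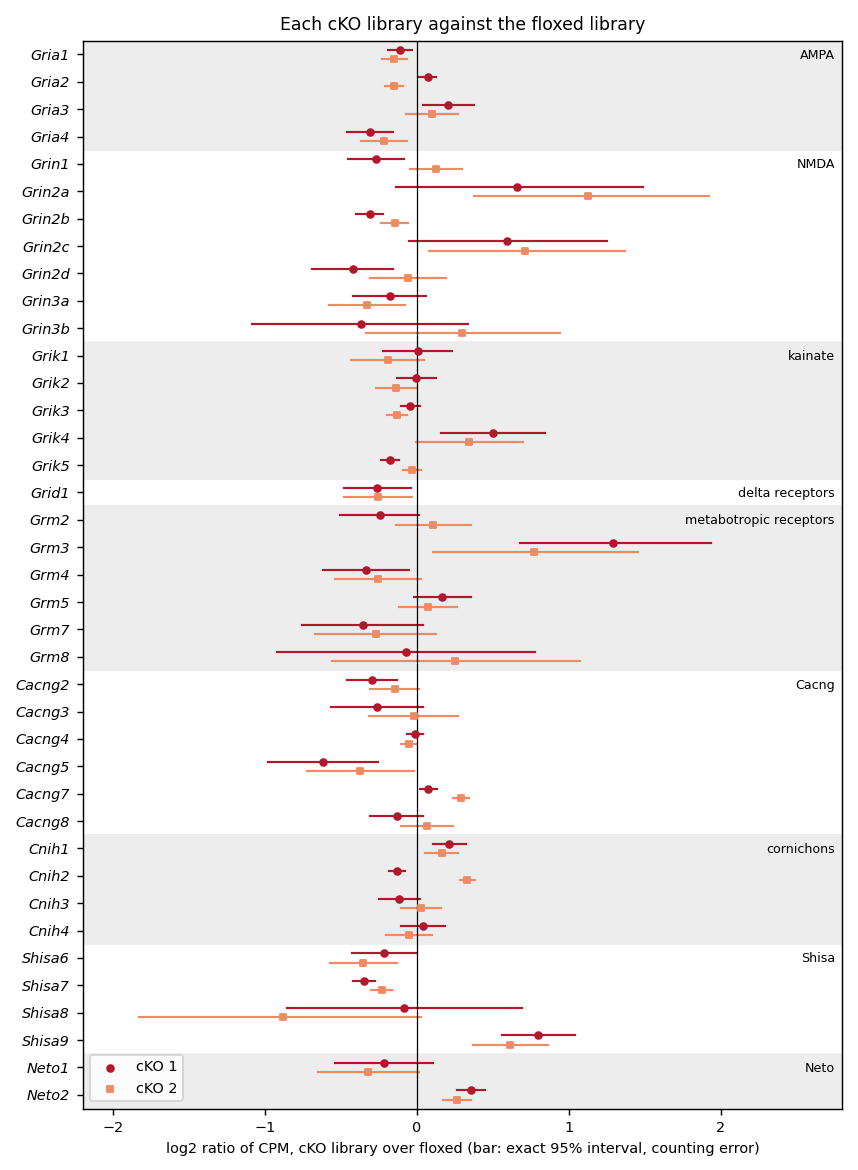
Ratio of each cKO library to floxed for 39 of the 41 glutamate receptor and auxiliary genes that passed the filter. Points are log2 ratios of CPM, with cKO 1 above cKO 2 in each row, and bars are exact 95% intervals for counting error. Shisa9, Neto2 and Grm3 lie right of 0 in both libraries, Shisa7 and Gria4 lie left of 0 in both, and Cnih2 lies on opposite sides.

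Start-site sequence is shown for 2 of the genes that were higher in both cKO libraries, Neto2 and Grm3, and 2 that were lower in both, Shisa7 and Gria4. The windows run from 250 bases before to 50 bases after a RefSeq start on GRCm38.p6, on the minus strand of the genome for all of them, and are written 5′ to 3′ along the gene. Capitals mark the GC box (GGGCGG or its reverse complement) and the E box (CAGNTG), searched on both strands. The windows are chr8:85700875-85701174 for Neto2, chr5:9725303-9725602 for Grm3, chr7:4844647-4844946 for Shisa7 and chr9:4796185-4796484 for Gria4. For Neto2, Shisa7 and Gria4 the RefSeq start is the outer end of the deposited gene position. The Grm3 window lies wholly upstream of the deposited position, which ends at 9725170.
Neto2: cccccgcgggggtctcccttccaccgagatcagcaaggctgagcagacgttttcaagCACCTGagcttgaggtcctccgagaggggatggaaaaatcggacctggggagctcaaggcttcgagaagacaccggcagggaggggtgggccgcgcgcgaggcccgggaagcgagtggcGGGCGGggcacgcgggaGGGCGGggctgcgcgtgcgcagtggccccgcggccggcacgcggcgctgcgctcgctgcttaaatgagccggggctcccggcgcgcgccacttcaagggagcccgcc
Grm3: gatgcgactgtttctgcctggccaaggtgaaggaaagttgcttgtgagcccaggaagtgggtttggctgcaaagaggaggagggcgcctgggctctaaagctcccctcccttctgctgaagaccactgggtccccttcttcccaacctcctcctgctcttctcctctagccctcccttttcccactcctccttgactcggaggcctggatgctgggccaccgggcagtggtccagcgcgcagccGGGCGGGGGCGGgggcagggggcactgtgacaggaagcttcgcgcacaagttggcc
Shisa7: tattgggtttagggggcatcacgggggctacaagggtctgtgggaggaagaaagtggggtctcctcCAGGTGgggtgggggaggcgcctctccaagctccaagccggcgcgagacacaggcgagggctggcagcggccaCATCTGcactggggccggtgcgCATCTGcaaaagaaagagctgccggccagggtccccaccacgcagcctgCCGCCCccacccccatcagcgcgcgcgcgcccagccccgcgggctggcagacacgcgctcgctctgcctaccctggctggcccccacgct
Gria4: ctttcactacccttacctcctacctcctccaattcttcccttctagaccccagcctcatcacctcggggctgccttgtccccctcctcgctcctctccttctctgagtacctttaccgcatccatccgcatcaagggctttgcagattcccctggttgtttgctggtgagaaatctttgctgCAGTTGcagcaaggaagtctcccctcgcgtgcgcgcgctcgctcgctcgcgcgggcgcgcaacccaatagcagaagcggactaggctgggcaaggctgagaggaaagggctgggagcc

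The Neto2 window held 2 GC boxes and 1 E box, and the Grm3 window held 2 GC boxes that do not overlap, and 0 E boxes. Shisa7 had 1 GC box and 3 E boxes, and Gria4 had 0 GC boxes and 1 E box. A window was found for 27 of the 42 members, of which 18 held a GC box in at least 1 window and 13 an E box. Of all 32851 windows of this length, 35.7% held a GC box and 51.4% an E box. These shares are per window and the members were counted per gene, so they are not like for like. The median GC content was 62.7% over the 32 windows of the members and 52.7% over all. These matches describe letters in the windows and mark no binding.

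Among the AMPA receptor subunits, which form the channels of most fast excitatory currents, Gria1 and Gria2 made up most of the level per kilobase of exon. Gria2, whose subunit makes the channel nearly impermeable to calcium once its transcript is edited, had 284 CPM in cKO 1 and 244 CPM in cKO 2, against 270 CPM in floxed. It was above floxed in cKO 1 and below it in cKO 2, each beyond counting error, so the groups overlapped. Gria1 had 133 and 130 CPM in the cKO libraries, against 144 CPM in floxed (fitted log2 fold -0.11, SE 0.12), and scaled to pan-neuronal genes its gap was no longer beyond counting error in both. Gria4, a subunit with fast kinetics, had 34.9 CPM (681 counts) in cKO 1 and 37.3 CPM (693 counts) in cKO 2, against 43.3 CPM (772 counts) in floxed.

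Both cKO libraries were below floxed for Gria4, at 0.806 (95% interval 0.726 to 0.895) and 0.862 (0.777 to 0.956) of its level. They averaged 36.1 ± 1.70 CPM (SD, n = 2). The fit gave a log2 fold of -0.24 (SE 0.15). Gria3 had 34.4 and 32.0 CPM in the cKO libraries, against 29.8 CPM in floxed, and was higher beyond counting error in cKO 1 alone. Per kilobase, Gria1 took 44.7% and 46.4% of the AMPA total in the cKO libraries, against 46.6% in floxed. Gria4 took 11.2% and 12.8%, against 13.4%.

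NMDA receptors pair the obligatory subunit, encoded by Grin1, with Grin2 or Grin3 subunits. Grin2b, the main Grin2 subunit of the embryonic forebrain, had 95.5 CPM in cKO 1 and 107 CPM in cKO 2, against 118 CPM in floxed. Both cKO libraries were lower, at 0.806 (0.757 to 0.859) and 0.905 (0.851 to 0.962) of floxed, and the fitted log2 fold was -0.21 (SE 0.15). Grin1 had 24.2 and 31.9 CPM, against 29.2 CPM in floxed. It was below floxed in cKO 1 beyond counting error and within it in cKO 2, and its cKO 1 level was 0.761 (0.673 to 0.860) of that in cKO 2. The antisense gene Grin1os covers 13.5% of its exon bases, where reads cannot be told apart without strand.

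Grin2a, the subunit that largely joins receptors after birth, was near the bottom of the range, with 1.95 CPM (38 counts) in cKO 1 and 2.69 CPM (50 counts) in cKO 2, against 1.23 CPM (22 counts) in floxed. Its ratio to floxed was 1.58 (0.91 to 2.8) in cKO 1 and 2.18 (1.30 to 3.78) in cKO 2. In the authors' deposited tables it was marked significant for cKO 2 (log2 fold 1.13, adjusted p = 0.00507, 7.2% of all genes marked) and not for cKO 1 (0.66, adjusted p = 0.166). Grin2c, a subunit best known from cerebellar granule cells, had 56 and 58 counts, against 34 in floxed, again beyond counting error in cKO 2 alone. Grin2d, known from interneurons and early brain, had 11.2 and 14.4 CPM, against 15 CPM, lower beyond counting error in cKO 1 alone.

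Grin3a, a subunit that lowers calcium entry, had 14.7 and 13.2 CPM, against 16.6 CPM in floxed, with a fitted log2 fold of -0.23 (SE 0.22). Its groups did not overlap, and the gap was beyond counting error in cKO 2 alone. Grin3b had 1.69 and 2.69 CPM, against 2.19 CPM, and 32.1% of its exon bases lie opposite Tmem259, a gene with 3177 and 3401 counts in the cKO libraries and 3126 in floxed, so its value is uncertain.

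**Figure D2:**
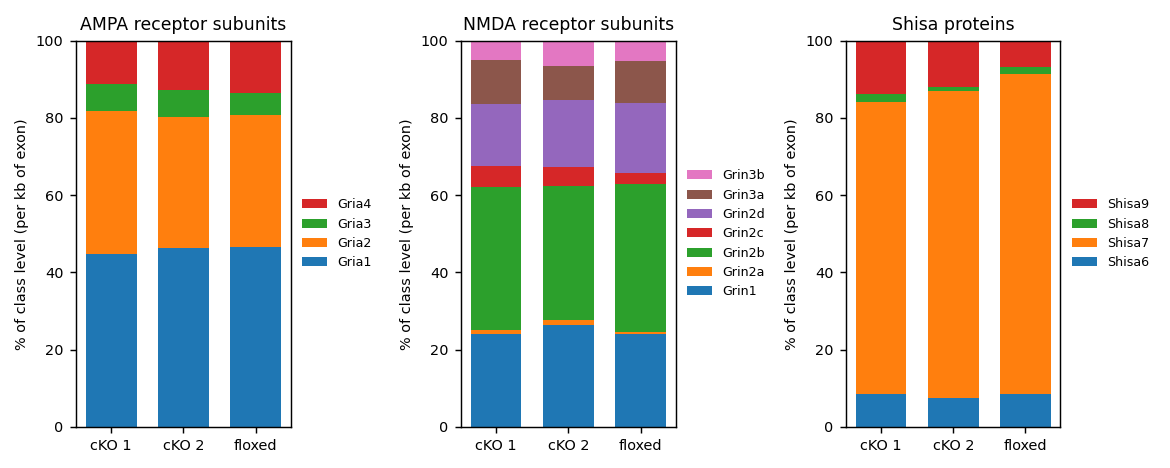
Share of each gene in the summed level of its class, in percent of CPM per kilobase of exon, for AMPA receptor subunits, NMDA receptor subunits and Shisa proteins in cKO 1, cKO 2 and floxed. Shisa9 holds 13.9% in cKO 1 and 11.9% in cKO 2, against 6.89% in floxed, and Gria1 holds 44.7% and 46.4%, against 46.6%.

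Of the kainate receptor subunits, Grik5 and Grik3 were the most abundant. Grik5, a subunit that binds glutamate with high affinity and forms channels only with Grik1 to Grik3, had 239 and 265 CPM, against 271 CPM in floxed (fitted log2 fold -0.08, SE 0.14), and was below floxed beyond counting error in cKO 1 alone. Grik3 had 218 and 205 CPM, against 225 CPM. Grik2 had 53.0 and 48.2 CPM, against 53.1 CPM. Each of the pair was below floxed beyond counting error in cKO 2 alone. Grik1 had 17.2 and 15 CPM, against 17.1 CPM, within counting error in both.

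Grik4, the other high-affinity subunit, was the kainate gene with the largest fitted fold. It had 9.58 CPM (187 counts) in cKO 1 and 8.61 CPM (160 counts) in cKO 2, against 6.78 CPM (121 counts) in floxed. Its ratio was 1.41 (1.12 to 1.79) in cKO 1 and 1.27 (0.996 to 1.62) in cKO 2, just within counting error, and the fitted log2 fold was 0.44 (SE 0.28). With library sizes scaled by TMM it was beyond counting error in both. Grid1 encodes a delta receptor that binds cerebellins rather than gating on glutamate. It had 16.9 and 17 CPM, against 20.2 CPM, a fitted log2 fold of -0.24 (SE 0.20). Its gap was no longer beyond counting error in both libraries with TMM scaling or when scaled to pan-neuronal genes.

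Grm3 had the largest fitted fold of all the glutamate receptor genes, on few counts. It encodes a metabotropic receptor of group II, coupled to Gi proteins and known from both neurons and astroglia. It had 4.25 CPM (83 counts) in cKO 1 and 2.96 CPM (55 counts) in cKO 2, against 1.74 CPM (31 counts) in floxed. Both cKO libraries exceeded floxed, at 2.45 times (1.60 to 3.83) and 1.70 times (1.08 to 2.74) its level, and they also differed from each other beyond counting error. The cKO mean was 3.61 ± 0.914 CPM (SD, n = 2), with a fitted log2 fold of 1.06 (SE 0.46, edgeR adjusted p = 1). In the authors' deposited tables Grm3 was marked significant for cKO 1 (log2 fold 1.29, adjusted p = 7.2e-05, 2.34% of all genes marked) and not for cKO 2 (0.77, adjusted p = 0.0352). The mark did not follow the adjusted p alone. Shisa9, Neto2, Shisa7, Cacng7, Cnih2, Grin2b, Grik5 and Gria2 had smaller adjusted p-values there for at least 1 cKO library and were not marked. Their deposited log2 folds were 0.80 or less in size. Per kilobase Grm3 took 14.1% and 9.36% of its class, against 5.66% in floxed. The gene lies on GRCm38 chromosome 5, 9485541 to 9725170, minus strand.

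The metabotropic receptors described next lay within counting error of floxed in at least 1 cKO library. Grm2, the other member of group II, had 12.3 and 15.7 CPM, against 14.6 CPM in floxed (fitted log2 fold -0.04, SE 0.27). Per kilobase it took 25.3% and 31.0% of its class, against 29.6%, and led the class in cKO 2 and floxed, while Grm5 led in cKO 1. Grm5, a Gq-coupled receptor of group I found in cortical progenitors, had 27.1 and 25.4 CPM, against 24.1 CPM, within counting error in both. Of group III, Grm7, a presynaptic receptor, had 5.12 and 5.44 CPM, against 6.56 CPM (fitted log2 fold -0.29, SE 0.31). Grm4 had 10.1 and 10.7 CPM, against 12.7 CPM, and Grm8 had 1.33 and 1.67 CPM, against 1.40 CPM.

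Auxiliary subunits were among the most abundant of the genes. Per kilobase of exon, Cnih2 had 224 and 309 CPM in the cKO libraries, against 245 CPM in floxed, Cacng7 had 121 and 141 CPM, against 115 CPM, and Cacng4 had 87.3 and 84.9 CPM, against 88.1 CPM. In floxed these were the highest of the 42, above every receptor subunit. Grik5 followed, with 46.3 and 51.2 CPM, against 52.3 CPM. Length was that of all annotated exons together, and with the longest coding transcript in its place the leading gene stayed the same in 7 of 9 classes. Gria2 then slightly exceeded Gria1, and Grin1 exceeded Grin2b.

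**Figure D3:**
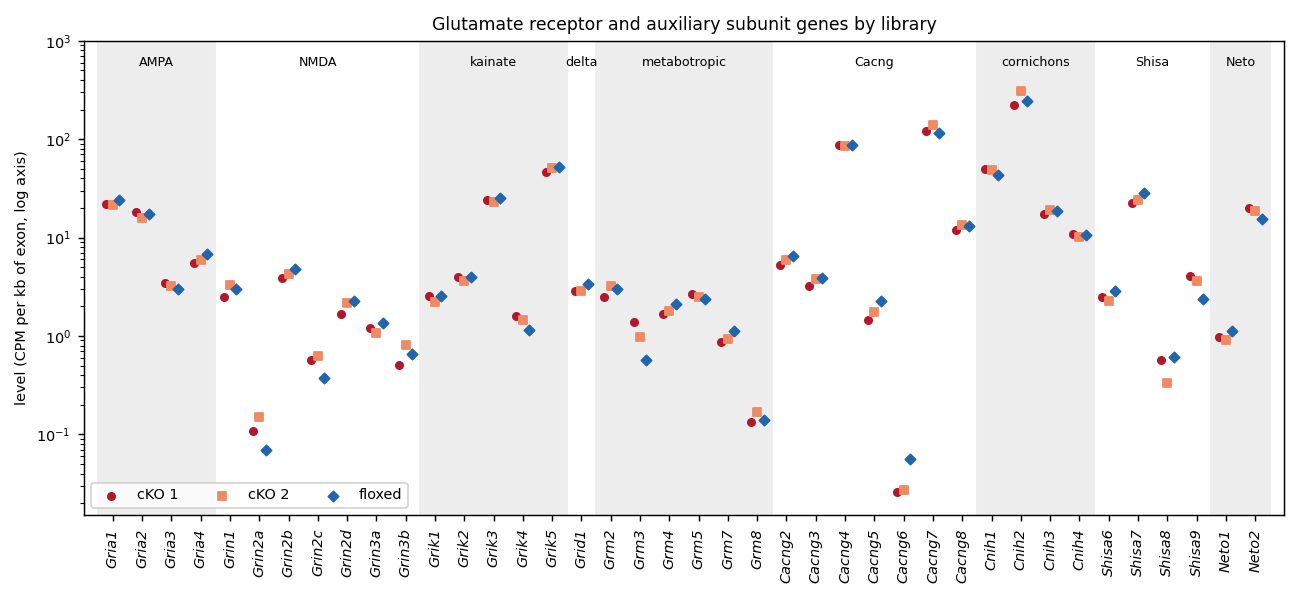
Level of 40 of the 42 genes in cKO 1, cKO 2 and floxed, in CPM per kilobase of exon on a log axis, grouped by class. Points are single libraries. Cnih2, Cacng7 and Cacng4 stand highest, and Cacng6, Grin2a and Grm8 are among the lowest.

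TARPs join AMPA receptors at the surface and slow their desensitisation. Cacng7 had 296 CPM (5778 counts) in cKO 1 and 344 CPM (6382 counts) in cKO 2, against 281 CPM (5016 counts) in floxed. Both cKO libraries exceeded floxed, at 1.05 times (1.01 to 1.09) and 1.22 times (1.18 to 1.27) its level, and the gap between them was wider than that of cKO 1 to floxed. The fitted log2 fold was 0.20 (SE 0.16). Cacng4, known from the embryonic brain, had 312 and 303 CPM, against 315 CPM, within counting error in both. Cacng2, or stargazin, had 29.3 and 32.5 CPM, against 35.9 CPM, lower beyond counting error in cKO 1 alone.

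Cacng5, an unusual TARP, had the largest negative fitted fold. It had 5.64 CPM (110 counts) in cKO 1 and 6.67 CPM (124 counts) in cKO 2, against 8.63 CPM (154 counts) in floxed, and a fitted log2 fold of -0.47 (SE 0.31). With TMM scaling its gap was no longer beyond counting error in both libraries. Cacng3 had 8.97 and 10.6 CPM, against 10.8 CPM, and Cacng8, a hippocampal TARP in the adult, had 27.7 and 31.8 CPM, against 30.4 CPM.

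Some cornichons escort AMPA receptors out of the endoplasmic reticulum. Cnih2 split the cKO libraries, with 5976 counts or 306 CPM in cKO 1 and 7854 counts or 423 CPM in cKO 2, against 5988 counts or 336 CPM in floxed. It was 0.912 (0.880 to 0.946) of floxed in cKO 1 and 1.26 times (1.22 to 1.30) floxed in cKO 2. The cKO libraries averaged 364 ± 82.4 CPM (SD, n = 2), with a fitted log2 fold of 0.14 (SE 0.24). Cnih1, which acts more widely in protein export, had 81.1 and 78.4 CPM, against 70.0 CPM, so that both cKO libraries were higher, at 1.16 times (1.08 to 1.25) and 1.12 times (1.04 to 1.21) floxed (fitted log2 fold 0.21, SE 0.13). An antisense gene covers 14.1% of its exon bases. Cnih3 and Cnih4 were within counting error of floxed in both libraries.

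Shisa9 (also CKAMP44) and Neto2 were the members with the smallest unadjusted p-values. Shisa9 encodes a single-pass protein that slows the recovery of AMPA receptors from desensitisation. The gene (ENSMUSG00000022494, GRCm38 chromosome 16, 11984113 to 12270902, plus strand) had 21.5 CPM (420 counts) in cKO 1 and 18.9 CPM (352 counts) in cKO 2, against 12.4 CPM (221 counts) in floxed. Both cKO libraries were above floxed, at 1.74 times (1.47 to 2.05) and 1.53 times (1.29 to 1.82) its level, and did not differ from each other beyond counting error. The cKO mean was 20.2 ± 1.82 CPM (SD, n = 2), with a fitted log2 fold of 0.72 (SE 0.22, edgeR adjusted p = 1).

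Neto2, a CUB-domain protein that modulates kainate receptors, is encoded on chromosome 8, 85636588 to 85700924, minus strand. It had 122 CPM (2373 counts) in cKO 1 and 114 CPM (2120 counts) in cKO 2, against 94.9 CPM (1693 counts) in floxed. Both cKO libraries were higher, at 1.28 times (1.2 to 1.36) and 1.2 times (1.13 to 1.28) floxed, and cKO 1 also exceeded cKO 2 beyond counting error. The cKO mean was 118 ± 5.30 CPM (SD, n = 2), with a fitted log2 fold of 0.33 (SE 0.12, edgeR adjusted p = 1). Its paralog Neto1 had 8.15 and 7.59 CPM, against 9.47 CPM, within counting error in both.

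Shisa7 and Shisa6 were lower in both cKO libraries, and Shisa8 was within counting error. Shisa7 (chromosome 7, 4825552 to 4844696, minus strand) had 2900 and 2988 counts, against 3370 in floxed, or 149 and 161 CPM, against 189 CPM. It was 0.787 (0.748 to 0.827) and 0.851 (0.810 to 0.895) of floxed, with a fitted log2 fold of -0.27 (SE 0.13). Shisa6, which keeps AMPA receptors at synapses, had 18.5 and 16.9 CPM, against 21.6 CPM (fitted log2 fold -0.27, SE 0.20), and scaled to pan-neuronal genes its gap was no longer beyond counting error in both. Shisa8 had 31 and 17 counts, against 30. Within the class, Shisa9 took 13.9% and 11.9% of the level per kilobase in the cKO libraries, against 6.89% in floxed, and Shisa7 75.7% and 79.6%, against 82.9%.

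Genes that act with these receptors were read from a list of 61 transporters, scaffolds, kinases and secreted or adhesion partners, of which 60 passed the filter. The edgeR test called 0 of them, and 1, Slc17a7, had an unadjusted p under 0.05. Beyond counting error, 8 were higher in cKO 1 (13.3%, against 17.8% of all genes) and 21 lower (35.0%, against 16%). In cKO 2, 12 were higher (20.0%, against 16.1%) and 11 lower (18.3%, against 24.5%). In 4 both cKO libraries exceeded floxed (6.67%, against 5.16% of all genes) and in 7 both were lower (11.7%, against 7.52%). The share of the higher ones is near that of all genes. Between the cKO libraries themselves, 11 partners were higher in cKO 1 beyond counting error (18.3%, against 27.3% of all genes). In the other direction, 25 were lower in cKO 1 than in cKO 2 (41.7%, against 17% of all genes). A difference beyond counting error thus also arose inside the group for these genes. A minimum count of 50 kept 57 of the 60, so the limit on comparing shares given for the members holds here too. Median log2 folds were -0.10 in cKO 1 and 0.02 in cKO 2.

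The 4 higher genes were Slc17a7, Gsg1l, Slc1a3 and Slc1a2. Slc17a7, the vesicular glutamate transporter that marks cortical excitatory neurons, had 119 and 145 CPM, against 95.5 CPM (fitted log2 fold 0.49, SE 0.18, edgeR adjusted p = 1). Slc17a6, the vesicular transporter more typical of subcortical neurons, had 37.7 and 40.4 CPM, against 38.3 CPM, within counting error in both. Gsg1l, another AMPA receptor auxiliary subunit, had 37.9 and 46.0 CPM, against 31.7 CPM (fitted log2 fold 0.42, SE 0.19). The glial uptake transporters Slc1a3, with 152 and 116 CPM against 105 CPM, and Slc1a2, with 55.1 and 61.4 CPM against 49.3 CPM, are the others.

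The 7 lower genes were Shank1, Shank2, Dlg2, Dlg3, Camk2b, Nsf and Nptx2. Other scaffold genes of the list went another way. Dlg4, at 0.910 of floxed in cKO 1 and 1.07 in cKO 2, lay on opposite sides beyond counting error. So did Dlgap3, at 0.870 and 1.17. Homer1 was above floxed in both, at 1.16 and 1.08, beyond counting error in cKO 1 alone. Shank2 had 55.8 and 58.6 CPM, against 69.4 CPM, and Shank1 had 334 and 381 CPM, against 414 CPM. Dlg2, a membrane-associated guanylate kinase, had 82.0 and 87.6 CPM, against 96.2 CPM. The vesicle fusion ATPase gene Nsf, whose product also binds AMPA receptors, had 67.0 and 73.2 CPM, against 80.6 CPM, and the neuronal pentraxin Nptx2 had 5.79 and 5.81 CPM, against 7.57 CPM. None of these passed the test, and with TMM-scaled library sizes 4 of the 7 were beyond counting error in both libraries, without Dlg2, Nsf and Nptx2.

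Cell type markers stood as follows beside the receptor genes. The 20 pan-neuronal genes summed to 10383 CPM in cKO 1 and 10981 CPM in cKO 2, against 10879 CPM in floxed. The 14 radial glia markers, which include Slc1a3, summed to 2932 and 2859 CPM, against 2214 CPM, with 9 higher beyond counting error in each cKO library and 0 lower (17.8% of all genes were higher in cKO 1 and 16.1% in cKO 2). The 13 markers of GABAergic neurons summed to 775 and 784 CPM, against 873 CPM, with 5 lower in cKO 1 (16% of all genes) and 6 in cKO 2 (24.5%), and 0 and 2 higher. The 9 Cajal-Retzius markers summed to 349 and 397 CPM, against 343 CPM, with 3 higher in cKO 1 and 8 in cKO 2, and 1 and 0 lower. The 8 markers of intermediate progenitors summed to 715 and 792 CPM, against 842 CPM, with 6 lower in cKO 1 and 4 in cKO 2, and 1 and 2 higher. The part of these shifts in the values of Grm3, Shisa9, Neto2, Gria4 and Shisa7 was not tested.

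**Figure D4:**
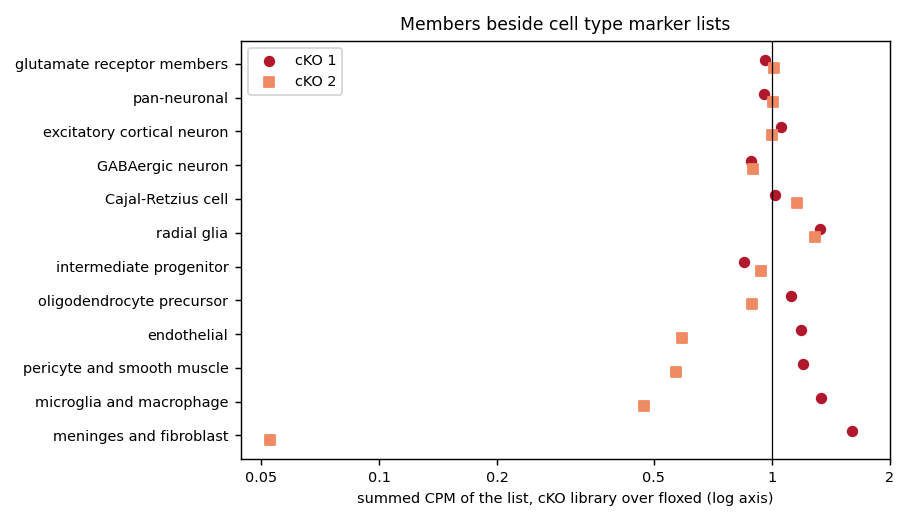
Summed CPM of the 41 tested glutamate receptor and auxiliary genes and of 11 cell type marker lists, as a ratio of each cKO library to floxed on a log axis. The receptor and auxiliary genes together lie at 0.963 in cKO 1 and 1.02 in cKO 2, near the pan-neuronal list. The meninges list lies at 1.60 and 0.0527. Not drawn, ionotropic subunits alone summed to 1195 and 1179 CPM in the cKO libraries, against 1267 CPM in floxed. Auxiliary subunits summed to 1476 and 1640 CPM, against 1508 CPM.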

How the data were processed

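Per the labels' protocols, RNA was taken with Trizol and 2 µg of it went into an Illumina TruSeq RNA kit, which does not mark strand. Whole-number counts of reads per gene were deposited by the authors, with symbols and positions. The submitters' processing notes name HTSeq 0.6.0, TopHat2 2.0.12, Bowtie2 2.2.3 and mm9. How reads that match several paralogs were counted is not stated there. Positions in the deposited tables were identical to GENCODE M21 (GRCm38) for 35 members and overlapped for 42, so they are given as GRCm38. The authors also deposited log2 folds and adjusted p-values of 1 library against 1 library, from a test that no source names.

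Columns were put in groups by KO or WT in their names, as in the sample titles. Which sample each was is not shown. A sample title in each group also holds the word Blood, which no source explains. The control column was the same in both tables and was used once. The labels list 2 samples per group, and the other floxed sample was not analysed here. Over all listed genes, cKO 1 had 19514882 counts, cKO 2 had 18579178 and floxed had 17839662. CPM were computed from them.

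Tests used edgeR 4.0.16 under R 4.3.3 (filter at a minimum count of 10, TMM, quasi-likelihood test, Benjamini-Hochberg adjustment over 16725 genes), with 1 residual degree of freedom, which comes from the cKO libraries. The spread of the floxed group was taken to equal theirs. The SE is the fitted log2 fold divided by the square root of F. Ratios carry exact 95% Clopper-Pearson intervals (scipy 1.17.1). Intervals and limits cover counting error only, since the reads carry no molecular identifiers. Log2 folds of single libraries used a pseudocount of 0.5 counts. Both procedures were run on simulated counts. Those for the intervals held counting error only, and those for edgeR gave every library the same spread. The runs check the computation and cannot test the spread between embryos or that of the floxed group. Alternatives used DESeq2 1.42.0, limma 3.58.1, other scalings, filters, a pseudocount of 2, and leaving out a cKO library.

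Members and lists were chosen with earlier results of these data known. A member was described in full when both cKO libraries lay on 1 side of floxed beyond counting error, when it led its class per kilobase, or when it had the largest fitted fold of its class at 5 CPM or more. Of the partners, up to 5 per direction and 4 transporters were named. Others were given by their values, except 2 members and some markers that are not reported here but stay in every count and sum.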

Additional observations from a re-analysis of the deposited data

How the results depend on the processing

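No member and no partner gene was called under TMM, library totals, DESeq2, limma-voom, no filter or a minimum count of 50. Over all genes, edgeR called 0, and 1 with library totals in place of TMM, while DESeq2 called 5. Members lower in both cKO libraries beyond counting error numbered 7, and 4 when libraries were scaled to the summed pan-neuronal genes, without Gria1, Grid1 and Shisa6. With TMM-scaled sizes they numbered 5, without Cacng5 and Grid1. The 5 members higher in both were the same genes under each of these scalings, with Grik4 added under TMM and Grin2c under the pan-neuronal sum. Partner genes lower in both numbered 7, and 4 under TMM, without Dlg2, Nptx2 and Nsf. Shares over all genes were not computed under the other scalings. Whether these counts moved apart from all genes is therefore not known. The median log2 fold of members in cKO 1 was -0.12, and -0.048 under the pan-neuronal sum. The causes were not tested. Leaving out a cKO library removes a condition from the count. Without cKO 1, 8 members were higher and 11 lower, and 12 partners higher and 11 lower. Of all genes, 16.1% were higher and 24.5% lower in cKO 2. Without cKO 2, 8 members were higher and 13 lower, and 8 partners higher and 21 lower. No test can be made without a cKO library, since no residual degree of freedom is left. The fitted log2 folds of the 18 members described in full kept their sign under every alternative fit. All these fits used the same libraries, so a kept sign was nearly fixed in advance and says nothing of the spread between libraries. Among the 18, single-library log2 folds over floxed were -0.13 in cKO 1 and 0.33 in cKO 2 for Cnih2. For Grm2 they were -0.24 and 0.11. No paired analysis was possible because there is a single floxed library. With 1 floxed library, the spread of the floxed group is not known, and the ratios of Grm3 and Grin2a, on 22 to 83 counts, had the intervals given above.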

Other observations

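Ratios between a pair of subunit genes within a library do not depend on library scaling, and were computed for 12 pairs picked with their levels known. In 7 pairs both cKO libraries were above floxed, and in 1 (Gria4 over Gria2) both were below. In 4 they lay on opposite sides. Which gene stood on top was also chosen, and turning a pair round swaps above and below. Pairs such as Shisa9 over Shisa7 set a gene higher in both cKO libraries over one lower in both. The tally therefore describes these pairs only, and no interval was computed. Per kilobase of exon, Shisa9 over Shisa7 was 0.183 in cKO 1 and 0.149 in cKO 2, against 0.083 in floxed. Neto2 over Neto1 was 20.3 and 20.5, against 13.7 in floxed. Grm3 over Grm5 was 0.528 and 0.392, against 0.242. Grin2a over Grin2b was 0.0282 and 0.0348, against 0.0144. Gria1 over Gria2 was 1.21 in cKO 1 and 1.37 in cKO 2, against 1.37 in floxed, so the cKO libraries differed more from each other than cKO 2 did from floxed. Gria4 over Gria2 was 0.303 and 0.377, against 0.395 in floxed, and Grik5 over Grik2 was 11.6 and 14.1, against 13.1.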
